A study of Mus musculus with 28 samples.

Results

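The AP-1 Fos and Jun family consists of the 7 genes *Jun*, *Junb*, *Jund*, *Fos*, *Fosb*, *Fosl1* and *Fosl2*, which were chosen by name from the 24089 genes of an RNA-seq table. Jun proteins (3 genes) bind DNA as pairs with each other or with Fos proteins, and Fos proteins (4 genes) need a Jun partner. The pairs form through a leucine zipper and recognize the AP-1 motif TGACTCA, which reads TGAGTCA on the other strand. In T cells several of these genes are induced by T cell receptor (TCR) stimulation, and AP-1 acts together with NFAT at cytokine genes such as *Il2*.

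The study asked how TGF-β and IL-4 turn naïve CD4+ T cells into Th9 cells, the helper T cells that make IL-9. The mice were adults of both sexes on a C57BL/6 background. For *Tgfbr1* KO cells the study describes *Tgfbr1* f/f mice with Ert2-cre, a Cre recombinase that becomes active with tamoxifen. WT mice of this line received oil and KO mice received tamoxifen, so that loss of the receptor and the tamoxifen itself cannot be told apart. Titles of the DNase libraries name these treatments, whereas those of the RNA libraries give only WT or KO. The study also lists *Tgfbr1* f/f mice with Cd4-cre and does not name the line used for RNA-seq. Naïve cells were stimulated with anti-CD3 and anti-CD28 in control medium, with TGF-β, with IL-4, or with TGF-β + IL-4. This gave 8 RNA-seq groups of 3 libraries each. All WT RNA libraries come before all KO RNA libraries in library number. A difference between these blocks of numbers therefore cannot be told apart from genotype. The labels tell replicates apart by a number only. The study states in general that 3 or more biological replicates were used, but it ties no number to a mouse. The p-values therefore measure the spread between these samples, which may be technical. DNase-seq, which marks open chromatin as DNase hypersensitive sites (DHSs), had 1 library for each genotype in control medium and 1 for each genotype with both cytokines, so that no error between replicates could be given for DHSs.

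RNA levels were deposited as RPKM, read numbers divided by gene length and by how many reads of a library were mapped. The headings of the 24 columns conflict with read counts given with the study for 8 WT libraries. The genes at 0 and above 0 in those counts matched all 8 columns when the columns were taken in the order of library numbers, but only 2 columns when they were taken as headed. Each of these 8 libraries had the same state as its column in at least 99.85% of 1991 to 3821 genes compared, whereas no other column exceeded 85.8%. The columns were therefore read in library-number order (WT, then KO, each block in the order control, TGF-β, IL-4, TGF-β + IL-4). Values as headed are given beside each called change or difference of a member. Both readings give the same library for 4 of the 24 columns, and 4 WT and all 12 KO columns had no read counts to check them against. Total reads are unknown, but the steps between low RPKM values gave relative depths from 0.795 to 1.66 (median 1.17), with WT libraries from 0.826 to 1.66 and KO libraries from 0.795 to 1.4.

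*Tgfbr1*, which encodes the type I TGF-β receptor, had 3.02, 3.25 and 3.31 RPKM in WT control, 13.9, 14 and 14.5 with TGF-β, 3.69, 3.48 and 3.94 with IL-4, and 17.6, 19.5 and 20.7 with both cytokines. In KO cells it had 2.32, 2.55 and 3.05 RPKM in control, 2.37, 2.42 and 3.24 with TGF-β, 2.92, 3.75 and 3.17 with IL-4, and 3.45, 5.18 and 3.35 with both. The KO and WT control libraries overlapped (log2 difference −0.21, limma adjusted p = 0.164). These values cover the whole gene and do not resolve the deleted part, so they check nothing about the deletion by themselves. Of 9 TGF-β response genes, 5 had a mean of at least 1 RPKM in both WT control and WT cells with TGF-β, and 5 of 5 rose, *Skil*, *Ski*, *Pmepa1*, *Smad3* and *Tgfbr1*. In KO cells 4 of these could be tested, all but *Pmepa1*, of which 0 of 4 passed the same limma test with TGF-β and 0 of 4 had an unadjusted p under 0.05. *Itgae* and *Smad7* reached the minimum only through cultures with TGF-β and were left out of these counts.

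A gene was tested by limma on log2(RPKM + 1) where its mean RPKM was at least 1 in the libraries compared, and calls required both an adjusted p (Benjamini-Hochberg) under 0.01 and more than a 1.5-fold change. Log2 changes on this scale understate the change of low genes. A gene under 1 RPKM in a group compared passes this minimum only if another group is higher, so counts over lists of other genes leave out such genes where this is said. *Fosb* and *Fosl2* were under this minimum in all comparisons, so 5 of the 7 members were tested. Every p-value in what follows is a limma p with Benjamini-Hochberg adjustment over all genes tested.

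*Jun* encodes c-Jun, the member most often described as a transcriptional activator. It lies at chr4:94715725-94718913 on the minus strand of mm9 (GENCODE vM1). The 200 bases before its start, chr4:94718914-94719113 on the minus strand, are shown because *Jun* had the largest change of all members and a DHS in all 4 lists over this stretch. The capitals mark TTACCTCA and TGACATCA, which resemble the AP-1 motif and begin 164 and 45 bases before the start.
Jun: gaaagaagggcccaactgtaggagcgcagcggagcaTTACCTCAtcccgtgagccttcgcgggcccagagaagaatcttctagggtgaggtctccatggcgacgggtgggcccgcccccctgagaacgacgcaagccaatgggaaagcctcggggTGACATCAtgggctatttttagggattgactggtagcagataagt
Of 22352 protein-coding starts, 0.922% held TTACCTCA and 3.19% held TGACATCA on either strand in the 350 bases before them. A match is a description, not a site.

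In WT cells *Jun* was the only member called higher where TGF-β was added. It had 22.2, 21.7 and 21.5 RPKM in WT control (21.8 ± 0.365, SD, n = 3), 33.2, 34.3 and 32.9 with TGF-β (33.5 ± 0.733), 17.7, 18.2 and 15.4 with IL-4 (17.1 ± 1.52), and 46.2, 45 and 49.6 with TGF-β + IL-4 (46.9 ± 2.4). The 4 WT groups did not overlap, and their order from the highest was both cytokines, TGF-β, control and IL-4. In KO cells *Jun* had 11.6, 10.7 and 9.5 RPKM in control, 11.4, 12.3 and 11.2 with TGF-β, 9.93, 12.2 and 11 with IL-4, and 10.3, 19.5 and 12.4 with both. The KO groups overlapped one another, and except for replicate 2 with both cytokines at 19.5 RPKM, every KO library was below every WT library.

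With TGF-β alone, *Jun* rose in WT cells by a log2 of 0.59 ± 0.0449 (SE; adjusted p = 6.75e-05), and every TGF-β library was above every control library. The change was just over the fold threshold. It was under that threshold at 0.57 without replicate 2, which leaves the libraries identified by read counts (adjusted p = 0.000454), and with median-ratio scaling (0.000154). Over its 10 alternatives adjusted p lay between 3.86e-05 and 0.00877, and as headed the change was 0.45 (adjusted p = 0.91). With both cytokines against control *Jun* rose by 1.07 ± 0.0534 (adjusted p = 1.15e-06), and against IL-4 alone by 1.41 ± 0.0703 (adjusted p = 1.19e-06). Both calls were made in 10 of 10 alternatives, whereas the headings gave 0.31 (adjusted p = 0.999) and 0.17 (adjusted p = 1).

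IL-4 alone was not followed by a called change of *Jun* (log2 −0.34 ± 0.0695, adjusted p = 0.0317), although all 3 IL-4 libraries were below all 3 control libraries. The change from TGF-β to both cytokines was 0.47 ± 0.0526 (adjusted p = 0.000399), under the fold threshold. The TGF-β effect on *Jun* was larger in the presence of IL-4 than in its absence, by a log2 of 0.81 ± 0.0855 (adjusted p = 0.000235). Without replicate 1 this interaction was 0.83 (adjusted p = 0.0365), and in a fit of all 24 libraries its adjusted p was 0.013, so that neither was called. Its adjusted p ranged from 0.000172 to 0.0365 over 10 alternatives, and as headed it was −0.28 (adjusted p = 1).

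*Jun* was also lower in KO than in WT cells. In control medium the log2 difference was −0.98 ± 0.0767 (adjusted p = 0.00018), with every KO library below every WT library, and it was called in 9 of 9 alternatives and had −1.04 as headed (adjusted p = 0.0709). With both cytokines the difference was −1.72 ± 0.192 (adjusted p = 0.000477), again without overlap. It was not called without replicate 1 (−1.54, adjusted p = 0.0118) or without replicate 3 (−1.61, adjusted p = 0.022), it was −1.99 without replicate 2, and its 9 alternatives ranged from 2.05e-09 to 0.022. As headed it was −1.28 (adjusted p = 0.19).

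In KO cells *Jun* had a log2 change of 0.12 with TGF-β (adjusted p = 1), of 0.05 with IL-4, and of 0.33 ± 0.199 with both (adjusted p = 0.534). The last value rests on replicate 2: without it the change was 0.09 (adjusted p = 0.87, range 0.135 to 0.87 over 10 alternatives). The difference between the KO and WT effects was −0.47 ± 0.093 for TGF-β (adjusted p = 0.00471), under the fold threshold, and −0.74 ± 0.229 for both cytokines (adjusted p = 0.051). Without replicate 2 the latter was called (adjusted p = 0.00276), as it was in the fit of all 24 libraries (adjusted p = 0.00931). Adjusted p ranged from 0.00276 to 0.338 over its 10 alternatives.

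**Figure D1:**
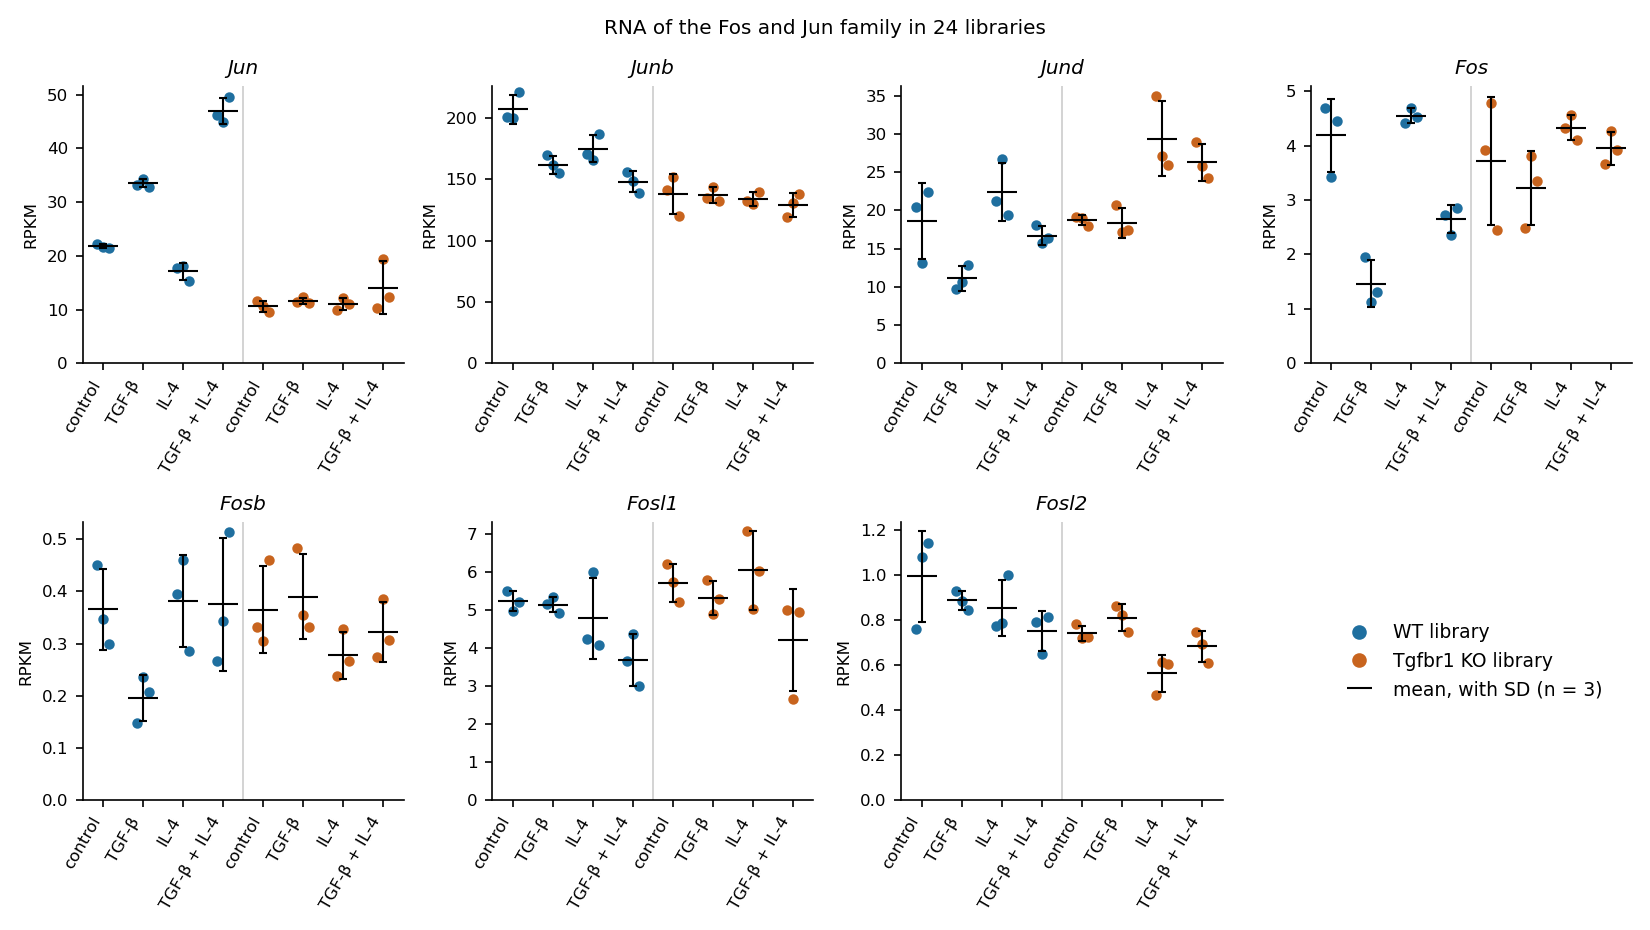
RPKM of the 7 members in each of 24 libraries (points), by culture and genotype, with the mean and SD of each group of 3 as bars. *Jun* separates the 4 WT groups, from 17.1 RPKM with IL-4 to 46.9 with both cytokines, while the KO groups have means between 10.6 and 14.1.

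Because these are bulk samples, fewer cells of a type and less RNA per cell cannot be told apart. Markers of other cells moved with *Jun* in places, and their part in the results was not tested. All 6 of 6 T cell markers were in the table, summed to 1035 to 1469 RPKM, with *Lck* highest. Of these, *Cd28* was called lower with TGF-β (−0.76, adjusted p = 3.45e-05) and with both cytokines (−0.62) in WT cells, and with IL-4 (−0.89, adjusted p = 0.000293) and both (−0.85) in KO cells, and *Lck* was called lower in KO than in WT cells with both cytokines (−0.64). Within the same list *Cd3e* and *Lck* rose in WT cells without a call, *Cd3e* by 0.20 and *Lck* by 0.27 with TGF-β, and by 0.58 (adjusted p = 4.37e-05) and 0.31 with both. *Ccr7*, a chemokine receptor gene of resting T cells, was called lower with TGF-β (−0.80, adjusted p = 2.1e-05) and IL-4 (−0.89) in WT cells, and with IL-4 (−0.83, adjusted p = 0.000284) and both (−0.70) in KO cells. For granulocytes 3 of 4 markers were in the table, with *S100a8* highest. In WT cells *S100a8* and *S100a9* rose with TGF-β and with both cytokines, while *Elane* was under 1 RPKM in control and reached the minimum only through those cultures. Their summed RPKM was 4.94, 14.5 and 13.6 in WT control, 69.2, 42.8 and 58.6 with TGF-β, 27.2, 43.4 and 16.9 with IL-4, and 117, 92.1 and 79.4 with both. In KO cells the granulocyte sums were 0.669, 0.582 and 16.5 in control, 4.33, 6.31 and 5.49 with TGF-β, 1.46, 12.4 and 0.925 with IL-4, and 7.47, 17.4 and 0.305 with both. The granulocyte sum and *Jun* thus had the same 2 WT cultures at the top. *S100a8* and *S100a9* were also called higher with both cytokines against IL-4 in WT cells, and lower in KO than in WT cells with both cytokines (−3.95 for *S100a8*, adjusted p = 0.00702), where *Jun* was called in the same directions. Naïve CD4+ cells had been purified on magnetic beads before culture, and the methods for RNA also name a sort of the cells into lysis reagent. The purity reached is not given for these libraries.

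B cell markers (3 of 3 in the table, *Cd79a* highest) were at 13.6, 16.4 and 10.1 summed RPKM in WT control and 5.15, 4.31 and 4.66 in KO control, and 3 of 3 were called lower in KO. Their means were 8.57, 7.5 and 11.8 in the WT cultures with TGF-β, IL-4 and both, and 4.85, 3.82 and 9.09 in the KO cultures. CD8 T cell markers (2 of 2, *Cd8b1* highest) ranged from 14.3 to 36.3 summed RPKM. Their means were 26, 16.8, 33.8 and 26.2 in the WT cultures in the order control, TGF-β, IL-4 and both, and 15.5, 14.8, 26.6 and 27.2 in the KO cultures. *Cd8b1* was called lower with TGF-β in WT cells (−0.75, adjusted p = 0.000104), and *Cd8a* lower in KO than in WT control (−1.60, adjusted p = 1.43e-05). *Cd8a*, *Cd28* and *Ccr7* were called higher in the interaction of TGF-β with IL-4 in WT cells, where *Jun* was called higher. No marker of their lists was called lower there. *Cd8a* was also called higher from TGF-β to both cytokines in WT cells.

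Of 5 monocyte and macrophage markers, *Lyz2* was the highest, and *Csf1r*, *Cd14*, *Itgam* and *Emr1* were under 1 RPKM in all libraries. The monocyte sum was 4.58, 6.2 and 3.53 RPKM in WT control, 18.4, 6 and 11.9 with TGF-β, 4.37, 2.81 and 2.71 with IL-4, and 16.7, 10.2 and 7.1 with both, while the KO means were 0.792, 4.95, 2.84 and 3.6 in the same order. *Lyz2* was called higher with both cytokines against IL-4 in WT cells (1.47, adjusted p = 0.0016) in the direction of *Jun*, and it had a lower mean in KO control (0.618) than in WT control (4.17). Dendritic cell markers (3 of 3) were likewise under 1, and the erythroid gene *Hbb-b1* was listed at 0 in all libraries. NK cell markers (2 of 2, *Ncr1* highest) had means of 2.19, 0.671, 4.32 and 1.71 RPKM in the WT cultures and 1.73, 1.76, 3.27 and 3.68 in the KO cultures. Mast cell and basophil markers (3 of 3, *Mcpt8* highest) had 5.4, 7.65, 6.15 and 6.41 in WT and 11, 6.98, 6.34 and 7.72 in KO cells, and *Mcpt8* was called higher in KO than in WT control (0.83, adjusted p = 0.002).

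*Junb*, whose protein is often a weaker activator than c-Jun and can also repress, had by far the most RNA of the family. It lies at chr8:87500811-87502617 on the minus strand. In WT cells it had 201, 200 and 221 RPKM in control (207 ± 11.9), 170, 162 and 155 with TGF-β (162 ± 7.26), 171, 166 and 187 with IL-4 (175 ± 10.8), and 156, 149 and 139 with both (148 ± 8.65). KO cells had 141, 152 and 120 RPKM in control (138 ± 16.3), 135, 144 and 132 with TGF-β (137 ± 6.41), 132, 130 and 140 with IL-4 (134 ± 5.37), and 119, 131 and 138 with both (129 ± 10.1). WT control stood above all other groups, and the groups next to one another below it overlapped.

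In control medium *Junb* was lower in KO than in WT cells, by a log2 difference of −0.59 ± 0.0896 (adjusted p = 0.0046), with all 3 KO libraries below all 3 WT libraries. It was not called without replicate 1 (−0.63, adjusted p = 0.066), without replicate 3 (−0.45, adjusted p = 0.00837) or with no minimum RPKM (adjusted p = 0.0222), its 9 alternatives ranged from 1.01e-05 to 0.066, and as headed it was −0.40 (adjusted p = 0.0659). B cell markers and *Cd8a* were called lower, and *Lyz2* had lower values, in the same comparison, as given above. Within WT cells, the change of *Junb* was −0.35 ± 0.0564 with TGF-β (adjusted p = 0.00369) and −0.48 ± 0.0604 with both cytokines (adjusted p = 0.000251). Both were under the fold threshold in all 10 alternatives, although every treated library was below every control library. With IL-4 the change was −0.25 (adjusted p = 0.0672). In KO cells *Junb* had changes of −0.03 with IL-4 and −0.08 with both cytokines, and no call.

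*Jund*, at chr8:73221638-73224515 on the plus strand, encodes JunD, which is widely made in resting cells. In WT cells it had 20.5, 13.1 and 22.4 RPKM in control (18.6 ± 4.93), 9.72, 10.7 and 12.9 with TGF-β (11.1 ± 1.63), 21.2, 26.7 and 19.4 with IL-4 (22.4 ± 3.84), and 18.1, 15.8 and 16.4 with both (16.7 ± 1.2). In KO cells it had 19.2, 19 and 18 RPKM in control (18.7 ± 0.655), 20.7, 17.2 and 17.4 with TGF-β (18.4 ± 1.95), 35, 27.1 and 25.9 with IL-4 (29.4 ± 4.96), and 28.9, 25.8 and 24.2 with both (26.3 ± 2.41). WT cells with TGF-β had the lowest values and KO cells with IL-4 the highest, and WT control replicate 2, at 13.1 RPKM, lay close to the TGF-β group.

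*Jund* rose with IL-4 in KO cells by a log2 of 0.61 ± 0.105 (adjusted p = 0.00737), with all 3 IL-4 libraries above all 3 control libraries. The call was lost without replicate 1 (adjusted p = 0.0263), 2 (0.0318) or 3 (0.025), in the fit of all 24 libraries (0.011) and with no minimum RPKM (0.0434), and its 10 alternatives ranged from 0.00663 to 0.0434. As headed the change was −0.05 (adjusted p = 0.945). In the same comparison the CD8 marker sum rose from 16.7, 14.8 and 15 RPKM to 26.3, 27.2 and 26.3, and *Cd8b1* was called higher (0.75, adjusted p = 0.000167) while *Cd8a* was not called (0.42). With both cytokines *Jund* was higher in KO than in WT cells by 0.62 ± 0.0851 (adjusted p = 0.00119), without overlap. That call was lost without replicate 1 (0.61, adjusted p = 0.0129) and without replicate 3 (0.66, adjusted p = 0.0201), over a range from 0.00119 to 0.0201 in 9 alternatives, and as headed the difference was 0.45 (adjusted p = 0.267). *Ncr1* was called higher in KO cells there as well (0.74, adjusted p = 0.00296), whereas *Cd8a* was called lower (−1.52, adjusted p = 0.00148) and *Cd8b1* was not called (0.47). The part of CD8 cells in the IL-4 result of *Jund* and of NK cells in the result with both cytokines was not tested.

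With TGF-β alone in WT cells, *Jund* had a log2 change of −0.67 ± 0.188 that was not called (adjusted p = 0.0413), although the groups did not overlap. It was called in the fit of all 24 libraries (adjusted p = 0.00296), with the replicate number as a block, and without replicate 2 (−0.88, adjusted p = 0.000889). Its 10 alternatives ranged from 0.000889 to 0.323. From TGF-β to both cytokines the change was 0.56 ± 0.0977 (adjusted p = 0.00446), under the fold threshold. That change was called in 1 of 10 alternatives, with 0.1 in place of 1 added to RPKM. With both cytokines in KO cells the change was 0.47 ± 0.0822 (adjusted p = 0.0163). The difference between the KO and WT effects was 0.65 for TGF-β (adjusted p = 0.0946) and 0.58 for both (adjusted p = 0.0887), and without replicate 2 the latter was called (0.79, adjusted p = 0.00579, range 0.00579 to 0.428 over 10 alternatives).

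*Fos* encodes c-Fos, an early product of T cell receptor and growth factor signals whose gene is driven in part by serum response factor (SRF) at a CArG box. It lies at chr12:86814840-86818223 on the plus strand. The 100 bases at chr12:86814490-86814589, from 350 to 251 bases before the start, are shown because DHSs of all 4 lists lie over them in whole or in part, and the capitals mark a CArG box match that begins 309 bases before the start. *Fosb*, at chr7:19888070-19895394 on the minus strand, has a match 272 bases before its start, within chr7:19895645-19895744.
Fos: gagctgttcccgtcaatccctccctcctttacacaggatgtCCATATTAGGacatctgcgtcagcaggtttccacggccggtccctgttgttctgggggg
Fosb: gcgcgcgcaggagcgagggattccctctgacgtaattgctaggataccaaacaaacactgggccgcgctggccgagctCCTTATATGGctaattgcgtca
Such a match was present in the 350 bases before 1.96% of 22352 protein-coding starts.

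*Fos* had low levels in all cultures and the lowest in WT cells with TGF-β. It had 4.69, 3.42 and 4.45 RPKM in WT control (4.19 ± 0.672), 1.95, 1.13 and 1.31 with TGF-β (1.46 ± 0.432), 4.42, 4.69 and 4.53 with IL-4 (4.55 ± 0.136), and 2.73, 2.36 and 2.86 with both (2.65 ± 0.258). In KO cells it had 3.91, 4.78 and 2.45 RPKM in control (3.72 ± 1.18), 2.48, 3.81 and 3.35 with TGF-β (3.22 ± 0.676), 4.33, 4.56 and 4.1 with IL-4 (4.33 ± 0.232), and 3.67, 4.27 and 3.92 with both (3.95 ± 0.302). The WT TGF-β group stood below all others, and the other 7 groups overlapped with their neighbours in the order of means.

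*Fos* fell with TGF-β in WT cells by a log2 change of −1.08 ± 0.143 (adjusted p = 0.00138), with every TGF-β library below every control library. It was not called without replicate 3 (adjusted p = 0.0193), the 9 alternatives ranged from 1.52e-05 to 0.0193, and as headed the change was −0.46 (adjusted p = 0.91). *Fos* also fell when TGF-β was added to IL-4, by −0.61 ± 0.0794 (adjusted p = 0.000308) and without overlap. Without replicate 2 this change was −0.53, under the fold threshold (adjusted p = 0.00401, range 0.000211 to 0.00716 over 9 alternatives), and as headed it was −0.36 (adjusted p = 1). *Cd8b1* was called lower in both of these comparisons (−0.75 and −0.63), whereas *Cd8a* was not called and had −0.12 with TGF-β and 0.49 where TGF-β was added to IL-4 (adjusted p = 0.000898). *Ncr1* was called lower where TGF-β was added to IL-4 (−0.87, adjusted p = 0.000797). The part of CD8 and NK cells in the values of *Fos* was not tested. Both cytokines against control gave −0.50 ± 0.108 (adjusted p = 0.00524), under the fold threshold. This change of *Fos* was called in 1 of 9 alternatives, with 0.1 in place of 1 added to RPKM.

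The KO libraries had no called change of *Fos*, with −0.14 for TGF-β (adjusted p = 1), 0.21 for IL-4 and 0.10 for both cytokines. The effect of TGF-β differed between KO and WT by 0.94 ± 0.268 (adjusted p = 0.0418), which was not called. In the fit of all 24 libraries the same difference was called (adjusted p = 0.00546), as it was with the replicate number as a block. Without replicate 3 it was 0.62 (adjusted p = 0.314), over a range from 0.00546 to 0.314. Under both cytokines *Fos* was higher in KO than in WT cells by 0.44 ± 0.0957 (adjusted p = 0.00958), under the fold threshold.

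*Fosl1*, at chr19:5447703-5455945 on the plus strand, and *Fosl2*, at chr5:32438845-32460204 on the plus strand, encode Fra-1 and Fra-2, which lack the strong activation domain of c-Fos. *Fosl1* had 5.49, 4.96 and 5.21 RPKM in WT control, 5.14, 5.32 and 4.92 with TGF-β, 4.22, 6 and 4.08 with IL-4, and 3.65, 4.36 and 3 with both. In KO cells it had 6.2, 5.73 and 5.19 RPKM in control, 5.77, 4.88 and 5.28 with TGF-β, 7.07, 5.02 and 6.01 with IL-4, and 5, 2.65 and 4.94 with both. Neighbouring groups overlapped throughout, and the lowest library was KO replicate 2 with both cytokines, which was also the KO library with the most *Jun*. *Fosl1* was called in 0 of 13 limma comparisons, of which 2 had an unadjusted p under 0.05. Its largest log2 changes were −0.42 ± 0.106 with both cytokines against control in WT cells (adjusted p = 0.0113) and −0.40 from TGF-β to both (adjusted p = 0.0273). In KO cells with both cytokines it was −0.40 ± 0.189 (adjusted p = 0.383), and −0.16 without replicate 2.

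*Fosl2* lay between 0.467 and 1.14 RPKM (median 0.776) and *Fosb* between 0.148 and 0.514 (median 0.329) over the 24 libraries. *Fosb* was lowest in WT cells with TGF-β, at 0.148, 0.235 and 0.206 RPKM, below every library of the group next to it, and its other group means lay between 0.277 and 0.39. These genes were not tested, and the reads behind their values, recovered from the steps of RPKM values, had medians of 125 for *Fosl2* and 37 for *Fosb*, fewer than the 1300 for *Jun*, 7333 for *Junb*, 1491 for *Jund* and 205 for *Fos*. *Fosl1* had a median of 80 reads. The fewest reads behind a single value were 16 for *Fosb*, 28 for *Fosl1*, 55 for *Fosl2* and 64 for *Fos*, so their values carry more counting error than those of the Jun genes.

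Per gene length, *Junb* held most of the RNA of the family in every library, from 65.5% to 81.8% of the summed RPKM of the 7 members (median 75.9%). *Jun* held 5.25% to 23.4%, *Jund* 4.4% to 18.5%, *Fosl1* 1.42% to 3.73%, *Fos* 0.528% to 2.53%, *Fosl2* 0.247% to 0.488% and *Fosb* 0.067% to 0.295%. The share of *Jun* was 8.46% ± 0.589 in WT control, 15.6% ± 0.53 with TGF-β, 7.62% ± 0.851 with IL-4 and 21.5% ± 1.71 with both cytokines (SD, n = 3), whereas its mean lay between 5.96% and 7.8% in the KO groups. The share of *Jund* was 10.6% in KO control and 15.8% in KO cells with IL-4. The family sum was 259 ± 16.1 RPKM in WT control and had means between 215 and 225 in the other WT groups and between 177 and 186 in the KO groups. Over the 24 libraries *Jun* varied most, with a ratio of 5.22 between its highest and lowest library, followed by *Fos* at 4.22, *Jund* at 3.6, *Fosb* at 3.47, *Fosl1* at 2.67, *Fosl2* at 2.44 and *Junb* at 1.87.

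**Figure D2:**
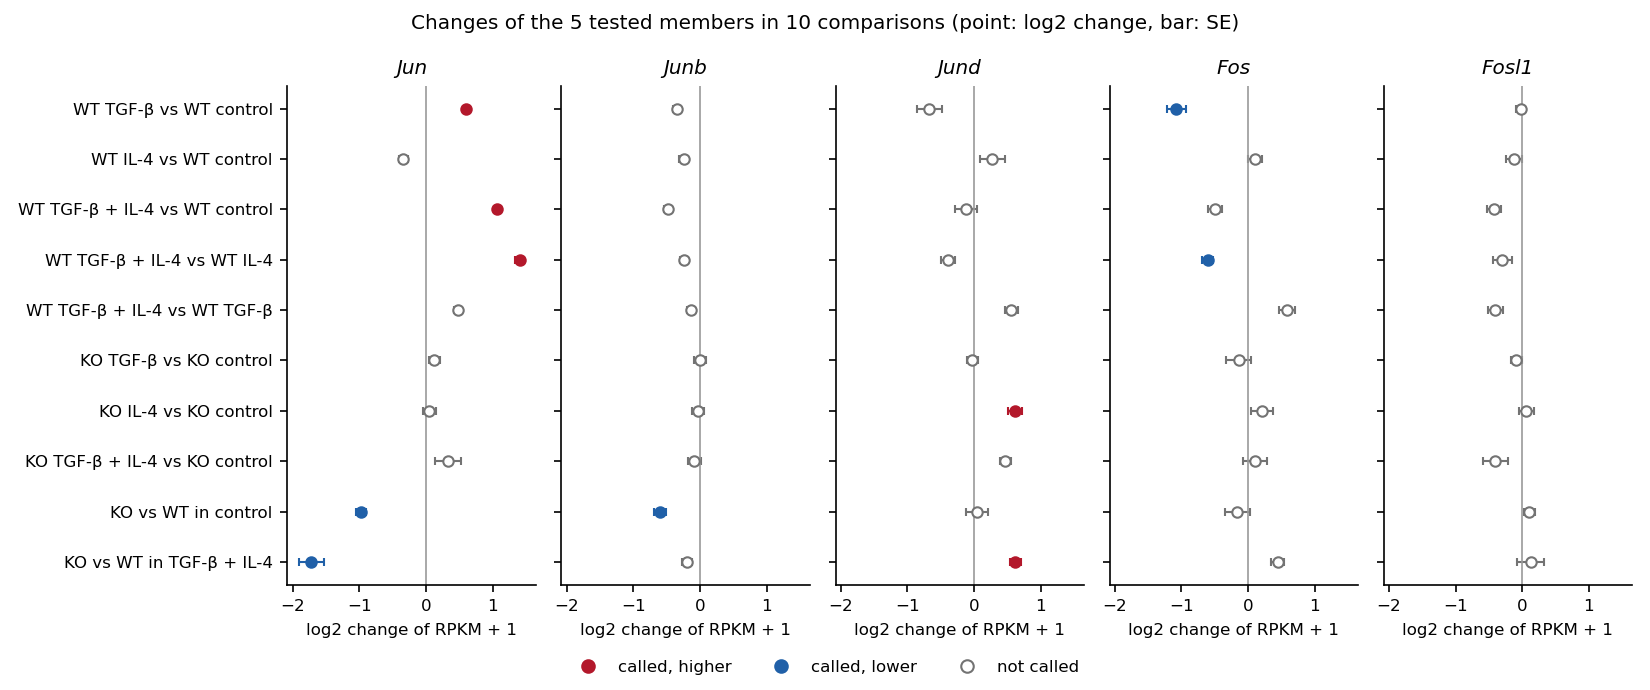
Log2 change with SE (bars) of the 5 tested members in 10 pairwise comparisons of 3 against 3 libraries; red points were called higher, blue points lower, and open points were not called. *Jun* is the member called most, from 1.41 with both cytokines against IL-4 in WT cells to −1.72 between KO and WT under both cytokines.

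The member calls were read against the share of all genes called. With TGF-β in WT cells 2 of 5 members were called (*Jun* up, *Fos* down), where 5.71% of all tested genes were called. With IL-4 in WT cells 0 of 5 were called by limma, beside 1.29% of all genes, and 2 of 5 had an unadjusted p under 0.05. Both cytokines in WT cells gave 1 of 5 against control, *Jun*, beside 9.27%, and 2 of 5 against IL-4, *Jun* up and *Fos* down, beside 9.28%. The 3 of these comparisons that add TGF-β share libraries, and *Jun* was called higher in each.

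Against TGF-β alone, both cytokines gave 0 of 5 members by limma, beside 3.03% of all genes, and 5 of 5 had an unadjusted p under 0.05. In KO cells TGF-β gave 0 of 5 beside 0.0105% of all genes, with 0 of 5 members and 246 genes in all at an unadjusted p under 0.05. The 1 gene called there was *Foxp3*, the regulatory T cell factor gene, named after its values were seen (log2 1.09, adjusted p = 0.00892). With the replicate number as a block 2 genes were called, and 0 genes were called without any 1 of the replicates, with median-ratio scaling, with no minimum RPKM or with a minimum of 5 RPKM. IL-4 gave 1 of 5 in KO cells, *Jund*, beside 2.51%. Both cytokines in KO cells gave 0 of 5 beside 1.92%, with 1 of 5 at an unadjusted p under 0.05. The KO cultures thus had a called member with IL-4 alone.

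Between KO and WT cells, 2 of 5 members were called in control medium, *Jun* and *Junb*, both lower in KO, beside 2.46% of all genes. With both cytokines 2 of 5 were called, *Jun* lower and *Jund* higher in KO, beside 8.44%. The difference of KO and WT effects gave 0 of 5 by limma for TGF-β, beside 4.71%, and 0 of 5 for both cytokines, beside 4.18%, and in each of these 4 of 5 had an unadjusted p under 0.05. The interaction of TGF-β with IL-4 in WT cells gave 1 of 5, *Jun*, beside 1.77%. In all, 11 of 65 member tests were called, and 0 of 65 with the columns as headed, where 0 genes were called in 12 comparisons and 7 genes between KO and WT control.

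The members did not share a direction. The median log2 change of the 5 tested members was −0.35 with TGF-β in WT cells beside 0.01 for all genes, −0.42 with both cytokines beside 0.03, and 0.47 from TGF-β to both beside 0.00. Across the 24 libraries, which share groups and depth differences, Pearson's r was 0.74 between *Fos* and *Jund*, −0.59 between *Jun* and *Jund*, −0.53 between *Fos* and *Jun*, and 0.41 between *Jun* and *Junb*. Of 9726 genes, those most like *Jun* over the 24 libraries were *Tspo* (r = 0.977), *Mov10* (0.973) and *Mpzl2* (0.969). *Junb* was most like *Crem* (0.905), *Degs1* (0.894) and *Cnn3* (0.879), and *Jund* most like *Ppp3cc* (0.909), *Egr1* (0.901) and *Lcp2* (0.891). For *Fos* the nearest were *Tg* (0.886), *Sla* (0.885) and *Il2* (0.882), and for *Fosl1* they were *1110065P20Rik* (0.795), *Polr2h* (0.755) and *Fam185a* (0.751).

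Other leucine zipper proteins pair with Jun proteins, among them Batf and Batf3, and 12 such genes were listed. With IL-4 in WT cells 3 of 8 tested genes rose and 0 fell, *Batf*, *Batf3* and *Atf3*, and in KO cells with IL-4 the same 3 of 7 rose. Of all tested genes 1.29% were called with IL-4 in WT cells and 2.51% in KO cells. *Batf3* had means of 6.79, 4.72, 18.8 and 10.8 RPKM in the WT cultures in the order control, TGF-β, IL-4 and both, and of 2.05, 1.98, 10.6 and 10.6 in the KO cultures, with a log2 change of 1.92 with IL-4 in KO cells (adjusted p = 4.32e-06) and of 1.34 in WT cells (adjusted p = 0.000811). *Maf*, which encodes the leucine zipper protein c-Maf, had WT means of 0.426, 2.47, 0.492 and 1.9 RPKM and KO means of 0.316, 0.328, 0.242 and 0.274. It was under 1 RPKM without TGF-β and reached the minimum only through the WT cultures with TGF-β, so these values are a description. Thus in WT cells the IL-4 cultures had higher *Batf3* and the TGF-β cultures higher *Maf*. With TGF-β in WT cells *Atf3* fell, and with both cytokines against IL-4 *Batf*, *Batf3* and *Atf3* fell, of 8 genes with at least 1 RPKM in both groups.

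Of 16 kinases and SRF partner factors upstream of AP-1, all tested, only *Elk3*, an SRF partner, passed the test with TGF-β in WT cells, where it rose by 1.22. *Elk3* and *Map2k6*, a kinase of the p38 pathway, rose with both cytokines, by 1.32 (adjusted p = 6.95e-07) and 0.62 (adjusted p = 0.00155). *Elk3* had WT means of 8.31, 20.7, 6.32 and 22.3 RPKM and KO means of 5.56, 5.57, 3.31 and 3.56, and it fell with IL-4 in KO cells (−0.61, adjusted p = 0.00406). The ERK, JNK and p38 kinase genes and *Srf* on the list were otherwise not called in WT cells with TGF-β or IL-4. However, 8 of 16 genes on this list had an unadjusted p under 0.05 with TGF-β, among them *Mapk3* (0.59, adjusted p = 0.0169) and *Srf* (−0.29, adjusted p = 0.0197), and 2 of 16 with IL-4. Of 4 NFAT genes, *Nfatc2* rose with TGF-β (0.59, adjusted p = 0.00703) and with both cytokines (0.88, adjusted p = 0.000151) in WT cells, with means of 4.43, 7.22, 5.95 and 9.02 RPKM. Of 4 genes for turnover of Jun proteins, *Fbxw7*, *Itch*, *Ndfip1* and *Rfwd2*, 0 were called in any of 13 limma comparisons, and 7 of 52 tests had an unadjusted p under 0.05.

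Genes with known AP-1 sites in T cells were counted as possible targets (14 genes). The list was written with earlier results of these data known, so its counts describe these genes only. Several of them, cytokine and effector genes, fell with TGF-β in WT cells. Of 8 genes with at least 1 RPKM in both groups 5 were called lower, *Il2*, *Csf2*, *Il3*, *Fasl* and *Plaur*, and 0 higher. Of all tested genes 5.71% were called there in either direction. The median log2 change was −1.25 beside 0.01 for all genes. *Il2ra* went the other way by 0.58 (adjusted p = 0.000898), just under the fold threshold, and *Tnf* (−0.44) and *Cd69* (−0.47) were lower without a call. *Timp1* was at 0.842 RPKM in control and 2.88 with TGF-β, and *Il4* at 1.19 and 0.867. With both cytokines against control 5 of 9 fell and 0 rose, where 9.27% of all tested genes were called. The median log2 change was −0.85 beside 0.03 for all genes. *Il2*, the T cell growth factor, had WT means of 69, 10.2, 110 and 37.8 RPKM in the order control, TGF-β, IL-4 and both, and KO means of 58.2, 62.7, 79.7 and 76.1. *Fos* thus had its lowest level in the culture where *Il2* was lowest, while *Jun* was above control there.

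*Il3*, a growth factor for blood cells, had WT means of 12.3, 1.93, 19.4 and 2.67 RPKM and changed by −2.21 with TGF-β (adjusted p = 0.000181). *Csf2*, which encodes GM-CSF, had WT means of 5.86, 1.42, 9.82 and 2.43 RPKM and changed by −1.51 with TGF-β (adjusted p = 0.000158) and by 0.66 with IL-4 (adjusted p = 0.00498). *Plaur*, the urokinase receptor gene, had WT means of 12.7, 4.14, 4.29 and 1.84 RPKM and changed by −1.43 with TGF-β (adjusted p = 0.000181), −1.39 with IL-4 (adjusted p = 0.00057) and −2.27 with both (adjusted p = 5.52e-07). *Fasl*, the Fas ligand gene, had WT means of 5.17, 1.93, 5.33 and 2.22 RPKM and KO means of 6.39, 6.95, 5.13 and 5.11. All of these genes were lower in WT cells with TGF-β than in control.

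In KO cells TGF-β gave 0 of 8 calls in this list by limma, beside 0.0105% of all genes. Of these 8 genes 1 had an unadjusted p under 0.05, and the median log2 change was 0.11. IL-4 gave 1 up, *Csf2*, and 2 down, *Tnf* and *Cd69*, beside 2.51% of all genes. Both cytokines gave 1 down, *Cd69*, beside 1.92%. Against WT control, 3 of 8 were lower in KO control, *Csf2*, *Il3* and *Plaur*, beside 2.46% of all genes called. The effects of TGF-β differed between KO and WT for 6 of the 8 genes with at least 1 RPKM in all 4 groups. Of these, 5 were higher in KO and 1 lower, *Il2ra*, beside 4.71% of all genes called. The effects of both cytokines differed for 5 of 8, all 5 higher in KO, beside 4.18%.

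**Figure D3:**
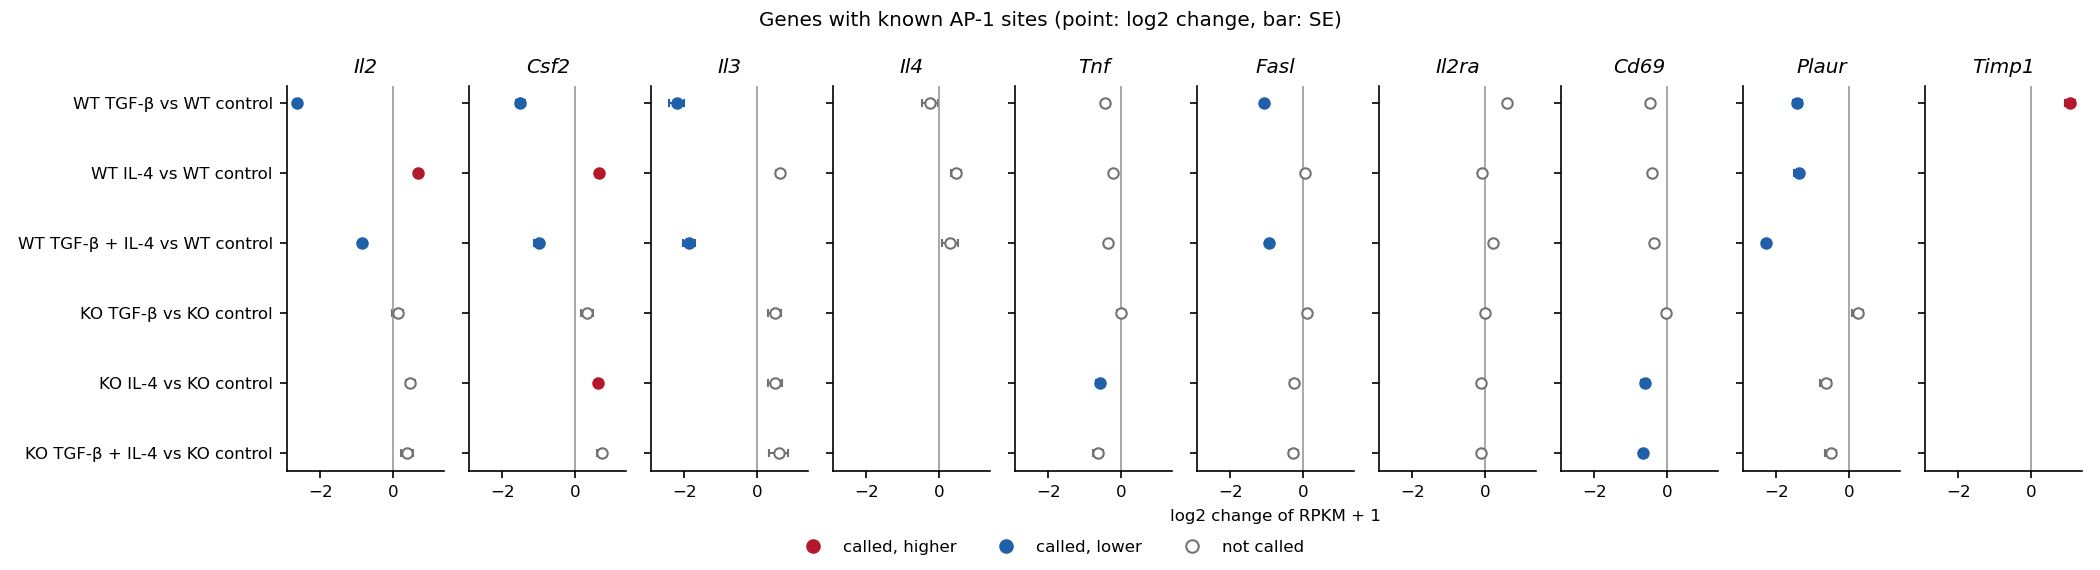
Log2 change with SE (bars) of the 10 tested T cell genes with known AP-1 sites in 6 comparisons of a treated culture with its control, 3 against 3 libraries; a point is missing where the mean RPKM was under 1. In WT cells *Il3* changed by −2.21 and *Plaur* by −1.43 with TGF-β, and in KO cells 0 of 8 genes were called with TGF-β.

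All 7 members had DHSs between 10000 bp before the gene start and the gene end. These fell on 22 sites, of which 12 were in all 4 lists and 6 in 1 list. No share over all genes or all DHSs is given beside these counts, so they describe the members only. For WT cells the lists held 44298 DHSs in control medium and 33880 with both cytokines, for KO cells 33665 and 27145, and the members had 18, 14, 17 and 13 sites in these lists in the same order. DHSs over the start of *Jun* were among the stronger ones of each list, with ranks by fold enrichment at 18.7% from the top in WT control, 20.9% in WT cells with both cytokines, 17.6% in KO control and 21.4% in KO cells with both cytokines. Their summits lay at −141 to −85 bp from the start, within the *Jun* sequence shown above. A further *Jun* DHS had its summit at −1132 to −1082 bp and ranked at 70.1%, 46.8%, 58.2% and 97.6% in the same order. The weakest of these ranks was that of KO cells with both cytokines, but with 1 library per condition no difference could be tested.

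At *Fos*, a DHS with its summit at −321 to −23 bp from the start was in all 4 lists (ranks 58.5%, 40.9%, 59.3% and 57.5%). A DHS 772 and 841 bp after the start was in the lists of WT control and KO control alone, with ranks of 93.8% and 91.7%. *Fosl2* had DHSs at 4 sites in WT control, 3 in KO control and 1 in each list with both cytokines. The sites absent with both cytokines ranked at 99.7%, 99.4% and 81.6% in WT control and at 99.6% and 89.1% in KO control. Over all DHSs, 14147 of 44298 in WT control had no overlap with both cytokines in WT cells. In KO control these were 9852 of 33665. *Jund* had a DHS at −1110 bp in WT control alone, at a rank of 97.8%. The 6 sites present in 1 list ranked between 82.6% and 99.9% there, and so were weak ones.

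The AP-1 motif lay within 100 bp of a summit at 4 of the 22 sites, both *Fosl1* sites, 1 *Fosl2* site and the far upstream *Junb* site. A 201-base window from each gene, on the plus strand of mm9, is shown because these DHSs at member genes hold the motif, which is in capitals. The *Fosl1* window is in an intron at chr19:5448784-5448984 around a summit in KO control, the *Fosl2* window is upstream of the gene at chr5:32438036-32438236 around a summit in WT control, and the *Junb* window is upstream at chr8:87509119-87509319 around a summit in KO cells with both cytokines.
Fosl1: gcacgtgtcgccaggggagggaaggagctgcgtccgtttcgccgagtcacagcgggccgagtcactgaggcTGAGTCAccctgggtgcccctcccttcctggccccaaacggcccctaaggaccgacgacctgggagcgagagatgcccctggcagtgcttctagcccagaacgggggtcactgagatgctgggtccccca
Fosl2: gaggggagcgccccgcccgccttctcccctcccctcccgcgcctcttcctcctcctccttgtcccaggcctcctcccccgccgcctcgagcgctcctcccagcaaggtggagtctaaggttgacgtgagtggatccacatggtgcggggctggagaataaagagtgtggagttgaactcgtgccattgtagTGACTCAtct
Junb: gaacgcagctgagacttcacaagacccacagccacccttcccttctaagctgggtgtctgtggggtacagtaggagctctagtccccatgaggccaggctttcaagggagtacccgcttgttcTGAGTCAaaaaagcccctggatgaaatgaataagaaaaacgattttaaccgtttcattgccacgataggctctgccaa
Counted by list, 9 of 66 member DHSs had the motif within 100 bp. In the lists as a whole it was there at 13.4% of summits in WT control, 8.61% in WT cells with both cytokines, 10.6% in KO control and 10.7% in KO cells with both, and in 2.66% of windows of this length at 22352 protein-coding starts. The *Jun*, *Fos*, *Fosb* and *Jund* windows held no such match, which says only that these letters are not there.

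**Figure D4:**
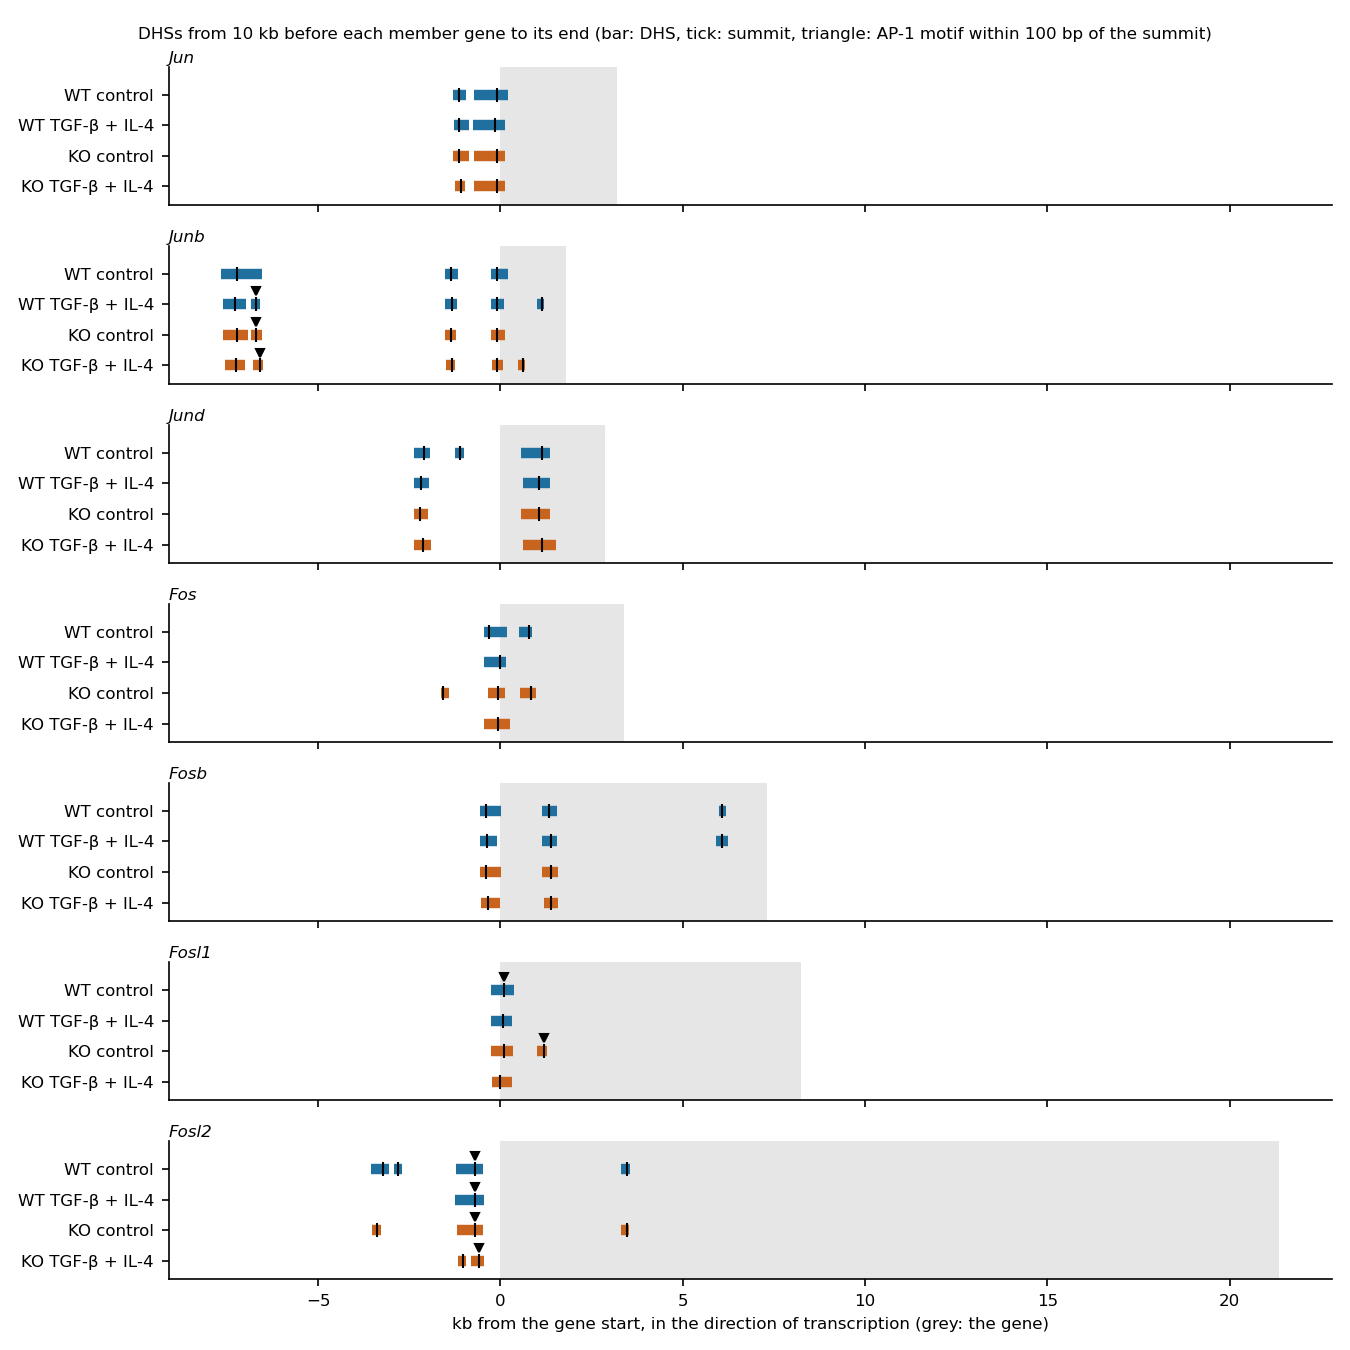
DHSs in the 4 lists from 10 kb before the start to the end of each member gene, by distance from the gene start in kb; bars are DHSs, ticks their summits, triangles summits with an AP-1 motif within 100 bp, and grey the gene. The *Jun* DHS at −141 to −85 bp is in all 4 lists, whereas 6 of 22 sites are in 1 list.

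Across all DHSs, the AP-1 motif was more frequent near summits in WT control than in the other lists. The share with a motif within 100 bp was 13.4% in WT control (exact 95% interval 13.1% to 13.7%), 8.61% in WT cells with both cytokines (8.32% to 8.92%), 10.6% in KO control (10.3% to 10.9%) and 10.7% in KO cells with both (10.3% to 11%). Intervals cover counting error only and not the difference between libraries, of which there was 1 a condition. DHSs of WT control that did not overlap one called with both cytokines (14147) had the motif in 21.2% (20.6% to 21.9%). DHSs of WT cells with both cytokines without an overlap in WT control (3644) had it in 4.28% (3.65% to 4.99%). The DHSs called with the cytokines alone in WT cells thus had the lowest share of the DHS sets compared, and those called in control alone the highest.

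The KO lists did not show this split. DHSs of KO control without an overlap in KO cells with both cytokines (9852) had the motif in 11% (10.4% to 11.6%), and those the other way round (3153) in 13.5% (12.4% to 14.8%). Under both cytokines, DHSs called in KO and not in WT (3462) had it in 18.7% (17.4% to 20%) and those called in WT and not in KO (10363) in 7.07% (6.59% to 7.58%). In control medium, DHSs called in WT and not in KO (13644) had it in 18% (17.4% to 18.7%) and those called in KO and not in WT (2924) in 6.77% (5.89% to 7.74%). In WT cells with both cytokines the share was 6.13% in the strongest DHSs, 9.91% in the middle and 9.8% in the weakest, when the list was split by fold enrichment into 3 equal parts, and in WT control it was 12.5%, 14.3% and 13.5%. The shares thus differed between these lists at each strength, while the number and strength of DHSs called also differ between lists.

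**Figure D5:**
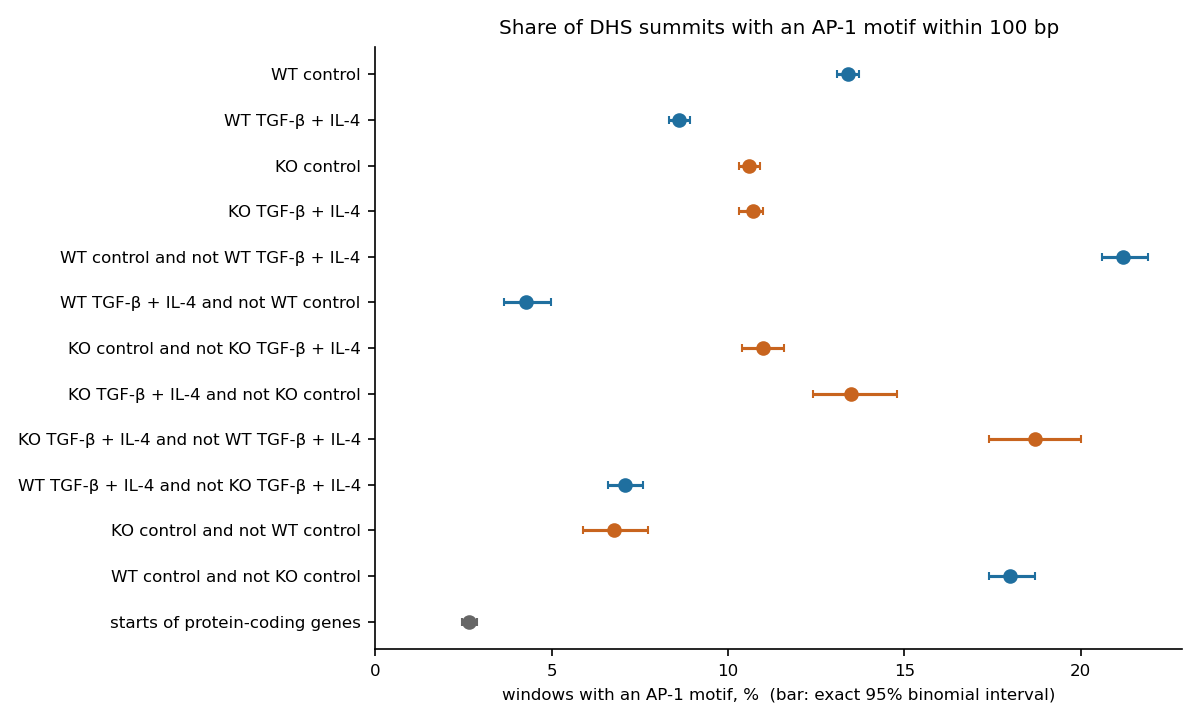
Percent of DHS summits with an AP-1 motif within 100 bp, with the exact 95% interval as bars, for the 4 lists, for DHSs called in one list and not in another, and for windows at protein-coding starts. The highest share is 21.2%, in DHSs of WT control not called with both cytokines, and the share at starts is 2.66%.

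Motifs were centred on summits. In bins of 20 bp, WT control had 2.348 motifs per 100 DHSs in the bin just after the summit and 0.3025 in the bin 290 bp before it. WT cells with both cytokines had 1.328 in the bin just before the summit and 0.307 at 290 bp, and KO cells with both had 1.776 and 0.3316. KO control had 1.756 just after the summit and 0.3475 at 290 bp. The 4 lists thus had similar values away from the summit, while at it WT control was highest, WT cells with both cytokines lowest, and the KO lists close to each other.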

How the data were processed

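RNA-seq (Smart-seq2) covered 24 libraries and DNase-seq 4, grouped by their labels. Reads were aligned to the mm9 build by the authors (Bowtie2), who deposited RNA levels as RPKM. For DNase-seq the authors called peaks on each library with MACS2 and deposited a fold enrichment ratio and a −log10 q-value for each peak. Versions of these tools are not given in the sources used here. No total read numbers were used.

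Here, log2(RPKM + 1) was tested with limma 3.58.1 (R 4.3.3, trend on mean level) and Benjamini-Hochberg adjustment, with only the compared groups in a fit, leaving out genes whose mean RPKM was under 1. The fit was tested on simulated data with independent normal noise and with changes planted only in genes above a minimum level. That test checks that the fit runs as intended. It cannot speak to differences shared by libraries or to low genes. No pairing of libraries was used in the main fit. Only KO control and KO TGF-β, of the cultures compared with a block, had deviations from group means that correlated at over 0.1 in all 3 pairs of the same number (0.31, 0.351 and 0.331).

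Alternatives were the columns as headed, the libraries identified by read counts alone (for WT comparisons the same fit as without replicate 2, and counted once), a pseudocount of 0.1, no minimum or a minimum of 5 RPKM, median-ratio scaling, all 24 libraries in 1 fit, an adjusted p of 0.05, the replicate number as a block within each genotype, leaving out each replicate, and, for DHSs, 50 bp in place of 100, a −log10 q of at least 5, and an overlap of 50% in place of 1 bp. Reads behind a value were recovered from RPKM steps with a tolerance of 0.02.

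The 7 members were always named, and of other genes those on fixed lists of partners, kinases, NFAT, turnover, AP-1 site and TGF-β response genes. Members and lists were chosen with earlier results of these data known. The motif variants, the CArG box and the 350 bases searched were chosen after seeing the data and serve as descriptions. Sequences and gene coordinates are from mm9 (NCBIM37) and GENCODE vM1, read with pysam 0.24.0 and samtools 1.23.1. Python 3.11.15, numpy 2.4.6, pandas 2.3.3, scipy 1.17.1 and matplotlib 3.10.9 were used.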

Additional observations from a re-analysis of the deposited data

Results flagged for a closer look

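Of the 7 members and the genes on the pathway lists, those below are listed because the test of a difference between effects passed both thresholds (limma, adjusted p under 0.01 and fold change over 1.5). For TGF-β against control, the effect in KO minus the effect in WT was on the log2 scale −1.21 for *Elk3*, 2.75 for *Il2*, 1.83 for *Csf2*, 2.69 for *Il3*, 1.18 for *Fasl*, −0.59 for *Il2ra*, 1.66 for *Plaur*, −0.81 for *Skil*, −0.98 for *Ski*, −1.17 for *Pmepa1*, −2.03 for *Itgae* and −1.84 for *Tgfbr1*. For both cytokines against control, it was 0.85 for *Batf*, 1.32 for *Batf3*, 2.05 for *Atf3*, −1.84 for *Elk3*, 1.23 for *Il2*, 1.73 for *Csf2*, 2.46 for *Il3*, 0.66 for *Fasl*, 1.76 for *Plaur*, −0.86 for *Skil*, −1.18 for *Ski*, −0.98 for *Pmepa1*, −2.65 for *Itgae* and −1.83 for *Tgfbr1*. In WT cells, the TGF-β effect with IL-4 minus that without IL-4 was 0.81 for *Jun*, 1.12 for *Il2* and 0.65 for *Itgae*. *Itgae* reached the minimum of 1 RPKM only through WT cultures with TGF-β, and *Pmepa1* only through WT cultures, so these genes could be tested only because they were high there. All 3 comparisons use the WT control libraries, and no explanation was tested.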

How the results depend on the processing

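With the as-headed reading left out and each fit counted once, 589 of 619 alternative member values kept their side of the threshold, 18 fell below it and 12 came above it. No called value among them changed direction. As headed, 2 called values reversed, *Jund* with IL-4 in KO cells at −0.05 and *Jun* for TGF-β with IL-4 in WT cells at −0.28, since other libraries are then compared. As headed, 0 genes were called by limma in 12 comparisons and 7 between KO and WT control, with 37 to 2439 genes at an unadjusted p under 0.05.

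At a minimum of 5 RPKM, fewer genes were tested and 342 were called with TGF-β, 80 with IL-4 and 580 with both in WT cells, 0 with TGF-β (123 at an unadjusted p under 0.05) and 153 with IL-4 in KO cells, 149 between KO and WT control, 550 between KO and WT with both, and 284 for genotype with TGF-β. With no minimum, 83 were called with IL-4 and 194 from TGF-β to both in WT cells, 0 (617 at an unadjusted p under 0.05), 154 and 99 with TGF-β, IL-4 and both in KO cells, and 106 for TGF-β with IL-4. The libraries identified by read counts alone, the fit without replicate 2, gave 73 for IL-4, 452 from TGF-β to both and 91 for TGF-β with IL-4. For TGF-β in KO cells, median-ratio scaling gave 0 (255 at an unadjusted p under 0.05), all 24 libraries 3 and an adjusted p of 0.05 gave 3; the latter gave 284 for TGF-β with IL-4.

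Libraries of 1 genotype share replicate numbers across cultures, and neither the labels nor the study text says that a number stands for 1 mouse. With the number as a block, TGF-β gave 2 and both cytokines 88 genes in KO cells, *Jund* with TGF-β in WT cells (adjusted p = 0.00407) and *Fos* for genotype with TGF-β (0.00815) were called, and no other member call changed. Deviations from group means correlated at −0.089 to 0.553 in 18 WT pairs of the same number (median 0.062, 8 over 0.1) and at −0.297 to 0.415 in 18 KO pairs (median 0.188, 10 over 0.1). A library correlated best with its own number in 17 of 36 WT and 21 of 36 KO cases, and in all 3 other cultures for 2 of 12 WT and 4 of 12 KO libraries. The own number was best in 6 of 6 cases between KO control and KO TGF-β, and between KO IL-4 and KO with both cytokines, where all 3 pairs were also over 0.1 (0.266 to 0.415), and in 2 to 4 of 6 cases between any other cultures. These values are a hint from the data and not a part of the design.

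Leaving out each replicate gave 294 to 561 calls for TGF-β, 12 to 106 for IL-4, 859 to 984 for both, 802 to 985 for both against IL-4 and 143 to 452 against TGF-β in WT cells. In KO cells it gave 0 to 0, 121 to 176 and 32 to 175 for TGF-β, IL-4 and both. Between KO and WT it gave 61 to 247 in control and 335 to 1104 with both, and for interactions 216 to 322 (genotype with TGF-β), 120 to 513 (genotype with both) and 0 to 91 (TGF-β with IL-4).

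Within 50 bp of a summit the motif share was 9.12%, 5.34%, 6.91% and 6.81% in WT cells (control, both cytokines) and KO cells (control, both), since windows were shorter. It was then 14.8% and 2.58% in WT DHSs of control or of both cytokines without the other, 7.12% and 8.79% for the same in KO, 12.1% and 4.38% in KO or WT alone with both cytokines, and 4.21% and 12.6% in KO or WT alone in control. At a −log10 q of at least 5, it was 22.2% (WT, control without both), 20.8% (KO without WT, both cytokines) and 18.9% (WT without KO, control). With an overlap of 50% these were 20.4%, 15.3% and 17.2%, and 6.38% (WT, both without control), 11.8% (KO, both without control) and 8.06% (KO without WT, control). Where no cause is given, the cause was not tested. Few reads behind *Fosb*, *Fosl1*, *Fosl2* and *Fos* limit the precision of their values.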
